A study of Mus musculus with 6 samples.

Results

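The mitosis and spindle genes are a set of 43 genes whose products carry cells through mitosis: the cyclins and Cdk1, the mitotic kinases, the kinetochore and its checkpoint, the spindle motors, the condensin complex and the machinery of cell separation. Each gene is represented here by 1 probe set, the one with the highest mean over the 6 arrays among those that the platform annotation gives a single gene symbol. This rule found 42 of the 43 genes among 18193 genes with such a probe set, and Ccnb1 was not analysed here. All 42 lay above the lower limit set for testing, a mean level of 15.1 in deposited intensity units, which left 12281 genes in all. The dimmest of the 42, Gtse1, had a mean intensity of 83.2.

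The arrays were Affymetrix expression arrays of optic fissure, the ventral groove of the optic cup, taken by laser-assisted microdissection from C57BL/6J mouse embryos at E11.5. The 3 control samples had the genotype Six3Cre-;Fgfr1fx/fx;Fgfr2fx/fx and the 3 FGFR mutant samples Six3Cre+;Fgfr1fx/fx;Fgfr2fx/fx. All embryos therefore carried floxed alleles of the FGF receptor genes Fgfr1 and Fgfr2, and only the mutants carried Cre recombinase, driven by Six3 regulatory sequence, which is active in the eye field and ventral forebrain and not in the mesenchyme, vessels or blood around the eye. The titles give each control and each mutant array one of the numbers 8711, 9216 and 9266, and values below follow that order. Whether each array held 1 embryo or a pool is not given in the labels, so a p-value here sets the groups against the spread among 3 arrays apiece, some of which may be technical, and their small number limits the precision. Means below are given ± SD over the 3 arrays of a group.

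Mitosis genes are transcribed late in the cell cycle. A multiprotein complex of B-Myb with the MuvB core, together with FoxM1, switches them on, the DREAM form of the same core holds them down in resting cells, and a short promoter element called the cell cycle genes homology region (CHR) is the site that MuvB contacts. At this stage of eye development the neural retina and the ventral optic cup consist mostly of dividing progenitors, whereas pigment epithelium cells slow their divisions as they differentiate, so the level of these transcripts in a piece of tissue reflects both how many cells are dividing and how much transcript each holds. In these bulk samples, fewer dividing cells and less RNA per cell cannot be told apart.

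Before the members, the arrays themselves were compared. Of the optic cup markers, 10 of 10 measured were above the testing limit, which is set on the mean over all 6 arrays. Control means (n = 3) were 1565 ± 184 for Pax6 and 278 ± 62.8 for Rax, the dimmest. Their summed intensity was 8838 to 10651 in controls and 10317 to 13982 in mutants, with 6 of 10 lower in the mutants. The log2 differences, mutant minus control, were 0.51 for Pax6 and 1.33 for Otx2, but -1.20 for Rax and -1.08 for Six3. Mutant 8711 stood apart. Its median intensity was 18.1 against 28.7 to 34.6 in the other arrays, its mean correlation with the others was 0.885 against 0.931 to 0.937, and its ratio of 3 prime to 5 prime signal for the Gapdh control probe sets, a measure of RNA quality, was 93.6 against 4.26 to 14.96 in the other arrays. For the Actb control probe sets the ratio in mutant 8711 was 14.8, also the highest but close to the 12.1 of control 9266 and the 11.9 of mutant 9266. The group means of the Gapdh ratio were 9.34 ± 5.13 and 35.9 ± 50.1 (n = 3 each; exact permutation test, two-sided p = 0.7, where 0.1 is the smallest 3 against 3 arrays allow). Counts and the median over all members are therefore given with and without this array, as are the values of some single genes. The arrays also differed in sex-linked transcripts: Xist, from the inactive X chromosome, read 1269.6, 4313 and 2792 in controls, against 2949.9, 19.5 and 20.4 in mutants, and the Y-linked Eif2s3y read 698, 1.3 and 535 against 4.2, 1301 and 1143.5. Both were present in controls 8711 and 9266, while mutants 9216 and 9266 had Eif2s3y with little Xist. The part of sex in the results was not tested.

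Mitosis and spindle genes had slightly lower values in the mutants, and no single member was called. Of the 42 genes, 36 had lower values in the mutants, where 46.7% of all genes tested did, and 6 had higher ones. The median log2 difference, mutant minus control, was -0.19, beside 0.03 over all genes tested. In 6 of 42 genes (14.3%), Gtse1, Aurka, Kif2c, Prc1, Cdc20 and Kif23, every mutant array lay below every control array, beside 5.45% of all genes tested. In 0 of 42 did every mutant array lie above, beside 9.38% of all genes tested. By limma, which moderates each gene's variance across all probe sets, 0 of the 42 passed an adjusted p of 0.05, as did 0 of all 27022 probe sets tested (0%), and the smallest adjusted p of a member was 0.852. At an unadjusted limma p under 0.05, 2 members were lower (Kif2c and Aurka, 4.76%), beside 2.52% of all genes tested, and 0 were higher, beside 4.38%.

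**Figure D1:**
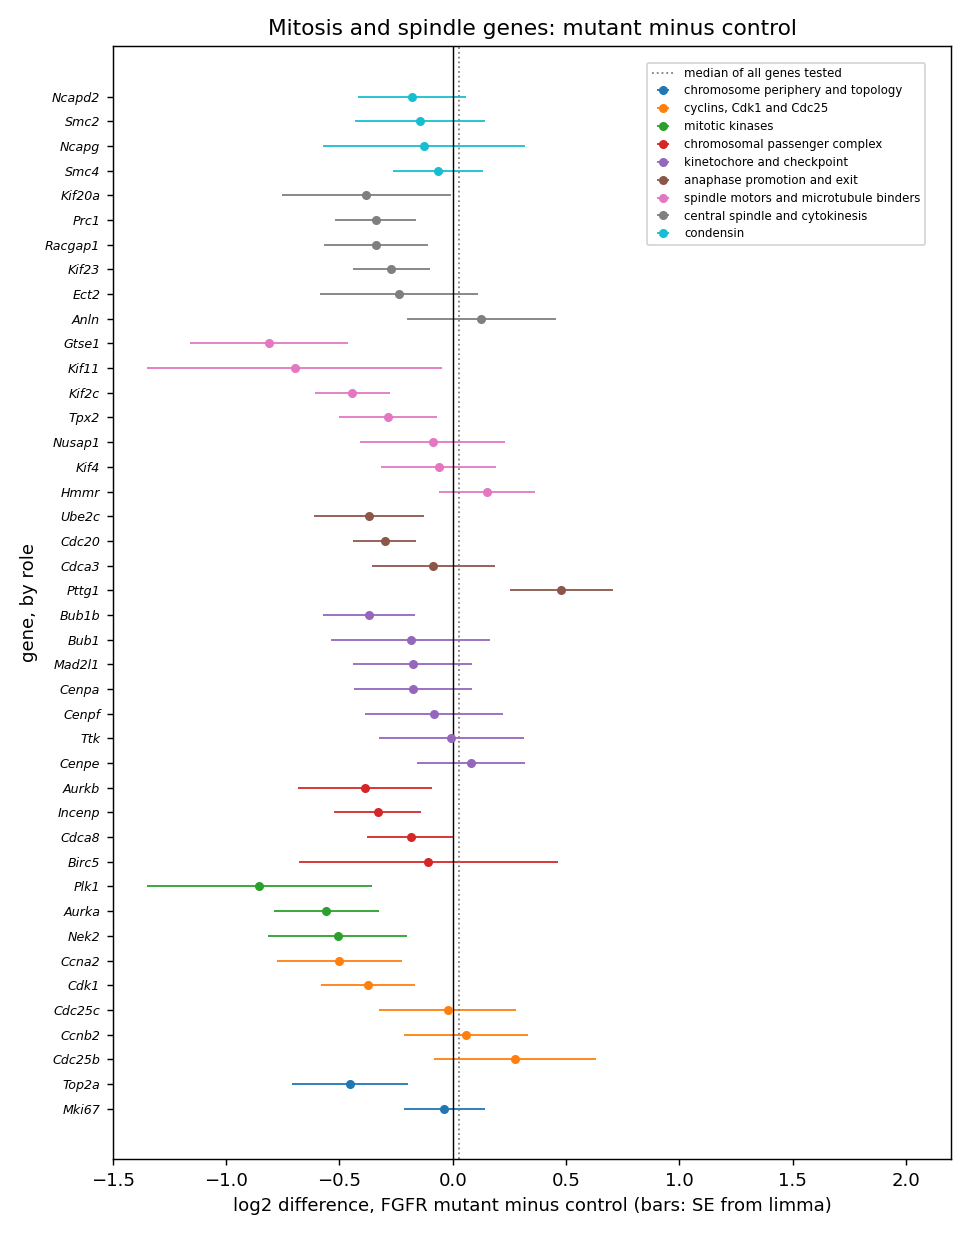
The log2 difference between FGFR mutant and control arrays is plotted on the x axis for each of the 42 genes, grouped by role on the y axis. Points are limma estimates from 3 against 3 arrays, bars are standard errors, and the dotted line is the median of all genes tested (0.03). Of the points, 36 lie left of 0, and 27 do when each array is centred on its median.

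The small shift was not shared evenly by the mutant arrays. The members' mean log2 level relative to the control mean was -0.05 in mutant 8711, -0.19 in mutant 9216 and -0.43 in mutant 9266, while the controls lay at 0.01, -0.02 and 0.01. In mutant 9266, 34 of 42 members lay below all controls, beside 24.2% of all genes tested, and 2 lay above, beside 35.8%. In mutant 9216, 21 lay below, beside 28.1%, and 4 above, beside 27.3%. In mutant 8711 the members spread both ways like other genes: 12 lay below, beside 31.9% of all genes, and 17 above, beside 39.8%. Mutant 9266 was the lowest of the 6 arrays for 23 members, and mutant 8711 was the highest for 16 and the lowest for 9.

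These counts rest on the mutant arrays in different ways. Without mutant 9266, 22 of 42 members were lower, beside 47.9% of all genes tested, and their median was -0.029. Without mutant 8711, 38 were lower, beside 47.1%, and the median was -0.34. Mutants 9216 and 9266 both lay below all controls for 19 of 42 members, beside 11% of all genes tested, and both lay above for 0, beside 15.3%. The 19 were Top2a, Aurka, Aurkb, Bub1, Bub1b, Kif23, Kif4, Kif2c, Ube2c, Cenpa, Cdc20, Tpx2, Cdca3, Incenp, Prc1, Racgap1, Ncapg, Gtse1 and Cdc25c. Even without mutant 8711 no member was called by limma, where 1 of 27022 probe sets (0.0037%) was, and the smallest adjusted p of a member was 0.276, that of Top2a. At an unadjusted limma p under 0.05, 9 members were lower without mutant 8711, beside 4.02% of all genes tested, and 1 without mutant 9266, beside 3.89%. When each array was centred on its median intensity, which raised the median of all genes tested from 0.03 to 0.14, 27 members were lower, with a median of -0.07. Centring shifts the difference of every gene by the same amount, so it cannot change the members' position relative to the median of all genes. Relative to that median, the members' median was -0.22 as deposited and so also centred, with 36 members below it. After quantile normalization it was -0.31, with 38 members below.

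**Figure D2:**
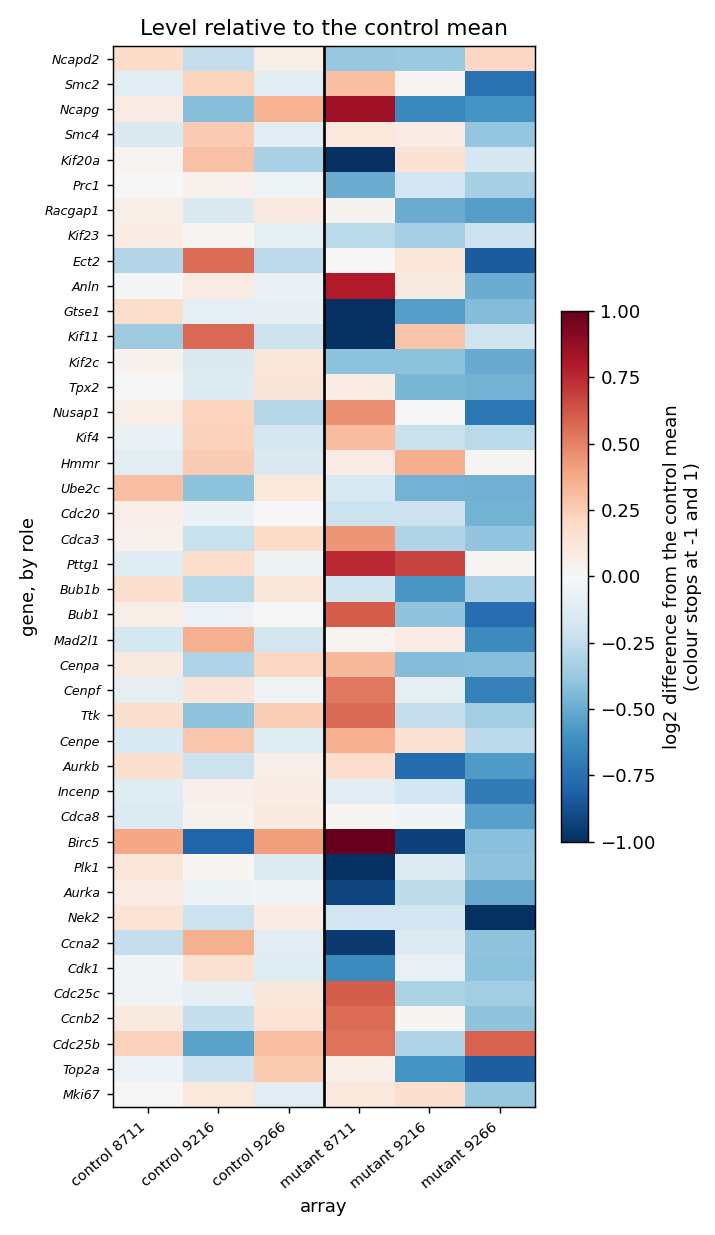
Each row is a gene, ordered by role, and each column an array, with the 3 controls left of the line and the 3 mutants right of it. Colour is the log2 difference from the control mean of that gene. The column of mutant 9266 is nearly all blue (mean -0.43), that of mutant 9216 mostly pale blue (mean -0.19), and that of mutant 8711 holds both the strongest red and the strongest blue.

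The promoters of these genes share short sequence elements. RefSeq promoter windows on GRCm38.p6, from 250 bases before to 50 after a gene's start, were matched by symbol for 35 of the 42 genes. The windows were searched on both strands for the CHR letters TTTGAA, for its variant TTCGAA and for CCAAT, the core of the site of NF-Y. TTTGAA was found for 26 of 35 members (74.3%), beside 20.2% of all 27025 genes in the table, TTCGAA for 4 (11.4%), beside 1.8%, and CCAAT for 29 (82.9%), beside 41.1%. TTTGAA and CCAAT occurred together for 24 members (68.6%), beside 8.97% of all genes, and overlapped each other in 1. For 23 members a TTTGAA began within 50 bases of the start. Of 76 other mitosis genes with a window, 35 (46.1%) held TTTGAA, 45 (59.2%) CCAAT and 24 (31.6%) both. Of 34 DNA replication genes with a window, a group expressed earlier in the cell cycle, 4 (11.8%) held TTTGAA and 21 (61.8%) held CCAAT. The 100 bases before the start are shown for members on which the results below turn or in which both elements lie close to the start, with each match in capitals. Pttg1 is shown as the member with the largest higher value in the mutants, and as 1 of 4 members (with Birc5, Mad2l1 and Nusap1) whose window held none of these letters.
Cdc20 (chr4:118437344-118437443, minus strand): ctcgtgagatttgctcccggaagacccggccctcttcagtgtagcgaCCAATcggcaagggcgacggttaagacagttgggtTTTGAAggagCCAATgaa
Ube2c (chr2:164769829-164769928, plus strand): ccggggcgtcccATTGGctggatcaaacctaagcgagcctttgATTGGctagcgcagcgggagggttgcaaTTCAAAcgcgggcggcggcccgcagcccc
Cdk1 (chr10:69352913-69353012, minus strand): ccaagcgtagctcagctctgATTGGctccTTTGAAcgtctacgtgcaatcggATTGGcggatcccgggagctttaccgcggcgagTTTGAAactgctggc
Kif11 (chr19:37376282-37376381, plus strand): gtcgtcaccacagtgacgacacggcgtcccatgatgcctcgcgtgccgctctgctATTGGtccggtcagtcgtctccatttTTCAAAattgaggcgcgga
Top2a (chr11:99024190-99024289, minus strand): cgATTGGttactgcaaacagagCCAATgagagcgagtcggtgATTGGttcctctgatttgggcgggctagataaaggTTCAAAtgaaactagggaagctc
Pttg1 (chr11:43425982-43426081, minus strand): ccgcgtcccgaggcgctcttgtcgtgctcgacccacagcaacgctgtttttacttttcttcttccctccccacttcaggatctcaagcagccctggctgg
ATTGG and TTCAAA are CCAAT and TTTGAA read on the other strand. A match describes the letters in the window and is not a measured binding site.

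The mitotic kinases had the lowest median of the roles, -0.56 over 3 genes, all lower under each scaling tried. That rank rested on mutant 8711. Without it the kinase median was -0.38, and the chromosomal passenger complex had the lowest, -0.56. Aurka, the kinase of centrosomes and spindle poles, had intensities of 465, 424 and 432 in controls, against 231, 369.5 and 310 in mutants, so the groups did not overlap, and mutant 8711 was the lowest. Its means came to 440 ± 22.0 against 304 ± 69.3 (n = 3 each), a log2 difference of -0.56 (SE 0.23). Plk1, the polo-like kinase that drives entry into mitosis and spindle assembly, read 307, 285 and 255 in controls, against 67.8, 257 and 213 in mutants. Its difference of -0.85 (SE 0.50), the lowest of the 42 genes, came largely from mutant 8711, and without that array it was -0.27. Nek2, a kinase that separates the centrosomes, read 559, 437 and 533 against 444, 444 and 228, a difference of -0.51 (SE 0.31), with mutant 9266 lowest.

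The cyclin and Cdk1 genes went both ways. Cdk1, the kinase at the heart of mitotic entry, read 857, 971 and 802 in controls, against 559.9, 830.2 and 658 in mutants, a log2 difference of -0.37 (SE 0.21). Mutant 9216 lay among the controls and the other mutant arrays below them. Ccna2, cyclin A2, a partner of Cdk1 in early mitosis, read 840.4, 1269 and 921 against 510.1, 902 and 753, with means of 1010.1 ± 228 against 722 ± 198 (n = 3 each) and a difference of -0.50 (SE 0.28). Its second probe set gave -0.14. Ccnb2, cyclin B2, had means of 907 ± 119 against 974 ± 326 (n = 3 each), a difference of 0.06 (SE 0.27) that became -0.19 without mutant 8711. The phosphatase genes Cdc25b and Cdc25c, whose products activate Cdk1, had differences of 0.28 (SE 0.36) and -0.02 (SE 0.30), the latter 0.09 when arrays were centred on their median. The median of these 5 genes, -0.02, likewise became 0.09 when centred.

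Among chromosome proteins, Top2a and Mki67 differed from each other. Top2a, the topoisomerase that untangles sister chromatids, read 3096, 2797 and 3858 in controls, against 3365, 2129.9 and 1819 in mutants. Mutants 9216 and 9266 lay below all controls and mutant 8711 lay among them. Its means came to 3250.2 ± 547 against 2438 ± 817 (n = 3 each), a log2 difference of -0.45 (SE 0.26), or -0.71 without mutant 8711. A dimmer Top2a probe set gave -1.64, or -1.05 without mutant 8711. Mki67, the surface protein of mitotic chromosomes and the usual marker of proliferating cells, read 3184, 3428 and 2951 in controls, against 3420.5, 3550.2 and 2452 in mutants. Only mutant 9266 was below the controls, and the difference was -0.04 (SE 0.18), or 0.07 when arrays were centred on their median.

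The chromosomal passenger complex, which corrects faulty attachments of chromosomes to the spindle, had 4 of 4 genes with lower values (3 of 4 when arrays were centred on their median) and a median of -0.26. Aurkb, its kinase, read 383, 296 and 356 in controls, against 387, 200.4 and 231 in mutants, a log2 difference of -0.39 (SE 0.29), or -0.67 without mutant 8711. A second probe set gave -0.25. Incenp, the scaffold that binds Aurkb, read 2599, 2925 and 2973 against 2625, 2478 and 1743, a difference of -0.33 (SE 0.19). Its dimmer tested probe sets gave -1.46 and -2.19, both with no overlap between the groups, or -0.70 and -1.33 without mutant 8711. Cdca8, borealin, had a difference of -0.19 (SE 0.19). Birc5, survivin, read 784, 342 and 798 in controls, against 1220.1, 312 and 448 in mutants. Both 9216 arrays were low for this gene and mutant 8711 was high, so that the difference of -0.11 (SE 0.57) was smaller than the spread within either group; it was 0.00 when arrays were centred on their median and -0.68 without mutant 8711.

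Kinetochore and checkpoint genes had a median of -0.18, with 6 of 7 lower, or 4 of 7 when arrays were centred on their median. Bub1b, the checkpoint protein BubR1, read 1327, 981 and 1289.6 in controls, against 1034, 792 and 949 in mutants, means of 1199 ± 190.1 against 925 ± 123 (n = 3 each), and a log2 difference of -0.37 (SE 0.20). A second probe set gave -0.50, reading 642, 538 and 589 against 395, 414 and 437 with no overlap between the groups. The checkpoint kinase gene Bub1 read 831, 768 and 797 in controls, against 1218, 603 and 470.5 in mutants, so the mutants lay on both sides of a narrow control range, and its difference of -0.19 (SE 0.35) was 0.10 without mutant 9266. Mad2l1, the checkpoint protein that inhibits Cdc20, and Cenpa, the histone of centromeres, had -0.18 (SE 0.26) each. Cenpf, an outer kinetochore protein, had -0.08 (SE 0.30), and the checkpoint kinase gene Ttk -0.01 (SE 0.32), both above 0 when arrays were centred on their median. Cenpe, the kinesin of the kinetochore, had 0.08 (SE 0.24), or -0.06 without mutant 8711. For a dimmer Cenpa probe set the values were 378, 140.3 and 385 in controls, against 24.5, 80.1 and 61.2 in mutants, a difference of -2.42, far from the -0.18 of the brightest one. Without mutant 8711 the dimmer one gave -1.94 and the brightest -0.43.

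Genes of anaphase and mitotic exit went both ways, with 3 of 4 lower, or 2 of 4 when arrays were centred on their median, and they held the member with the largest higher value. Cdc20, the activator of the anaphase-promoting complex, read 3178, 2899.5 and 3044 in controls, against 2621, 2614 and 2192 in mutants, with no overlap. Its means were 3041 ± 139 against 2475 ± 246 (n = 3 each), a log2 difference of -0.30 (SE 0.14), and its dimmer probe sets gave -0.44 and -0.58. Ube2c, the ubiquitin-conjugating enzyme of that complex, read 784, 478 and 683 against 571, 457 and 453, a difference of -0.37 (SE 0.24). Cdca3, a mitotic entry factor, had -0.09 (SE 0.27), or 0.03 when arrays were centred on their median. Pttg1, securin, which holds back sister separation until anaphase, read 1780.2, 2192 and 1873 in controls, against 3275, 3099 and 1955 in mutants. Mutants 8711 and 9216 lay above all controls and mutant 9266 among them, with means of 1948 ± 216 against 2776 ± 717 (n = 3 each) and a difference of 0.48 (SE 0.23). Its dimmer probe sets also had higher means in the mutants, at 0.19 and 0.64, or 0.02 and 0.33 without mutant 8711.

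**Figure D3:**
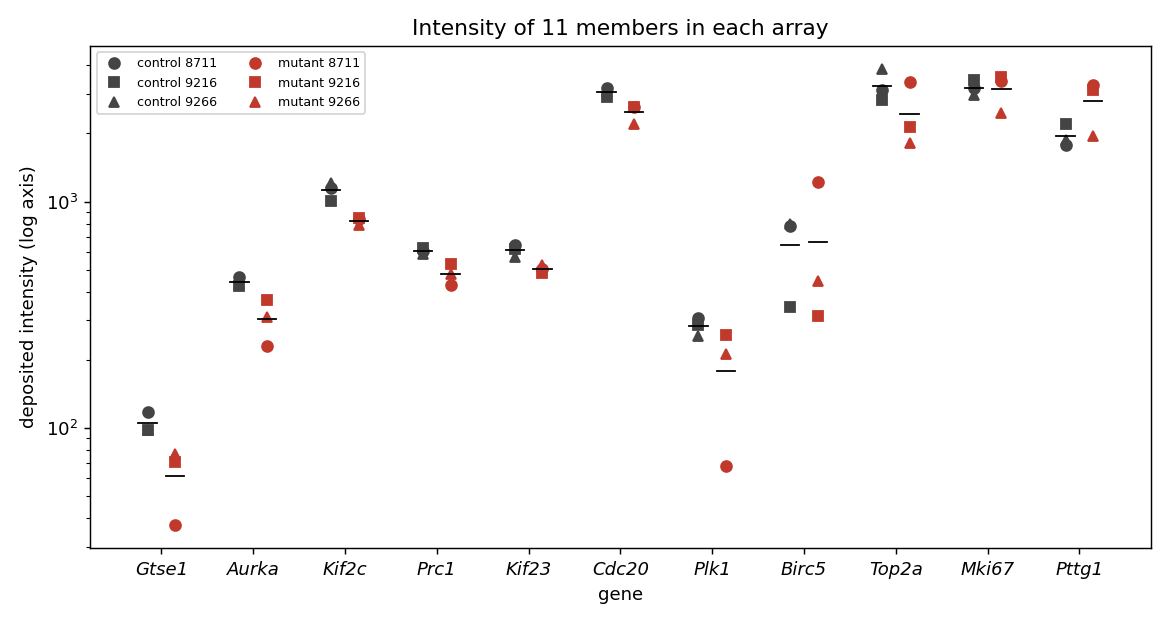
Deposited intensity of 11 members is plotted on a log axis, grey for control and red for FGFR mutant arrays, with the array number given by the symbol and the group mean by a short line. The groups do not overlap in the first 6 genes from the left, Gtse1 to Cdc20, whereas mutant 8711 lies far below the other arrays for Plk1 and above them for Birc5.

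Spindle motors and microtubule-binding proteins had a median of -0.28, with 6 of 7 lower, or 4 of 7 when arrays were centred on their median. Gtse1, a microtubule plus-end protein of mitosis, read 118, 97.7 and 98.5 in controls, against 37.2, 70.6 and 76.9 in mutants, means of 105 ± 11.7 against 61.6 ± 21.3 (n = 3 each), and a log2 difference of -0.81 (SE 0.35), or -0.49 without mutant 8711. Kif2c, the kinesin that takes microtubules apart at centromeres, read 1143, 1008 and 1210.4 against 839, 842 and 786, so all mutants lay close together below all controls. Its means came to 1120.3 ± 103 against 822 ± 31.7 (n = 3 each), a difference of -0.44 (SE 0.16), and its dimmer probe sets gave -0.57, -0.81 and -1.39. Without mutant 8711 the brightest gave -0.46 and the dimmer ones -0.13, -0.56 and -0.66. Kif11, the motor that pushes spindle poles apart, read 186, 355 and 206 against 51.4, 291 and 208. Both 9216 arrays were high and mutant 8711 was low, and the difference of -0.70 (SE 0.65) became 0.04 without mutant 8711. Tpx2, which nucleates spindle microtubules, had -0.28 (SE 0.22). Nusap1 and Kif4, which bind spindle microtubules and chromosomes, had -0.09 (SE 0.32) and -0.06 (SE 0.25), both above 0 when arrays were centred on their median. A much dimmer Nusap1 probe set, with means of 30 in controls and 15.9 in mutants, gave -0.85 with no overlap, or -0.71 without mutant 8711. Hmmr, a spindle pole protein, had 0.15 (SE 0.21), while all its other tested probe sets had negative differences, with and without mutant 8711.

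Genes of the central spindle and of cytokinesis, the cleavage of the cell, had a median of -0.30, with 5 of 6 lower under each scaling tried. Prc1, which bundles the microtubules between separating chromosomes, read 606, 624 and 588 in controls, against 429, 529 and 481 in mutants, a log2 difference of -0.34 (SE 0.18), with no overlap, and -0.42 for a second probe set. Kif23, a motor of the centralspindlin complex, read 642, 618 and 567 against 504, 482 and 526, also with no overlap, and a difference of -0.27 (SE 0.17). Its partner Racgap1 read 448, 388 and 457 against 439.7, 303 and 293, a difference of -0.34 (SE 0.23). Kif20a, a kinesin of the central spindle, had -0.38 (SE 0.37), or -0.01 without mutant 8711. Ect2, the exchange factor that starts the contractile ring, had -0.24 (SE 0.35), or 0.06 without mutant 9266. Anln, anillin, the scaffold of that ring, read 538, 579 and 521 against 944, 579 and 387, so that the mutants spanned a range far wider than the controls, and a difference of 0.13 (SE 0.33).

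Condensin genes, which compact mitotic chromosomes, had 4 of 4 lower values, or 3 of 4 when arrays were centred on their median, with a small median of -0.14. Smc2, its shared core subunit, read 1482, 1858 and 1475 in controls, against 1964, 1617 and 949.6 in mutants, a log2 difference of -0.14 (SE 0.29). Smc4, Ncapd2 and Ncapg had -0.07 (SE 0.20), -0.18 (SE 0.24) and -0.13 (SE 0.45), and Smc4 had 0.05 when arrays were centred on their median. A second Smc4 probe set gave -1.65 (SE 0.67) with no overlap between the groups, or -0.81 without mutant 8711. A dimmer Smc4 probe set gave -0.34, or 0.56 without mutant 8711. In Ncapg, mutant 8711 was at 700.5 and the other mutants at 248 and 258, against 411, 289 and 494 in the controls.

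For condensin genes and several others, probe sets of the same gene parted in mutant 8711. The brightest Smc4 probe set read 2417 in that array, within the control range of 2038 to 2685, while a second read 231 against control values of 2568, 2428 and 2082. A second Ncapg probe set read 3.4 against 137, 478 and 76.9, and a second Smc2 probe set 8.7 against 369, 674 and 171. Over the 29 members with more than 1 tested probe set, the brightest ones had a median of 0.08 relative to the control mean in mutant 8711 and the 46 others a median of -0.64. In mutant 9216 these medians were -0.22 and -0.27, and in mutant 9266 -0.47 and -0.40, so the medians parted in mutant 8711 only. Probe sets of single genes also parted in mutants 9216 and 9266, in both directions. The dimmer Cenpa probe set had -1.75 and -2.13 there, against -0.43 and -0.42 for the brightest. The second Ncapg probe set had 0.88 and 0.16, against -0.64 and -0.59 for the brightest. The second Smc4 probe set had -0.63 and -0.99, against 0.08 and -0.38 for the brightest. It read 1513 and 1183 in mutants 9216 and 9266, also below all controls. The dimmer Smc4 probe set had 0.56 and 0.55 in these arrays. Over all 5750 genes with several tested probe sets the medians in mutant 8711 were 0.14 and -0.29. The brightest probe set was chosen by its mean over all 6 arrays, mutants included. A probe set low in mutant 8711 was therefore less likely to be chosen, which by itself parts these medians in that direction. The second Smc4 probe set, for example, had the higher control mean, 2359 against 2269. How much of the gap came from this rule was not tested. When all probe sets of a gene were averaged, the sign of the difference changed for 6 members: it was 0.11 for Racgap1, 0.29 for Cdca3, 0.01 for Cdc25c, -0.93 for Cenpe, -0.19 for Anln and -0.52 for Hmmr. These averages include probe sets below the testing limit. The tested Racgap1 probe sets gave -0.34 and -0.16. An untested one read 0.6, 0.2 and 1 in controls, against 0.2, 9.4 and 1.5 in mutants. An untested Cdca3 probe set had means of 8.67 in controls and 15.9 in mutants. Of the 88 tested probe sets of the members, 76 had lower values in the mutants. The share over all tested probe sets was not computed, and their median difference was -0.05, below the 0.03 of genes by their brightest probe set. The ratio of Gapdh signal given above was highest in the same array, and its part in these values was not tested. Of the 42 brightest probe sets, 5 carry the suffix _x_at and 5 the suffix _s_at, by which Affymetrix marks probes shared with other transcripts, so the values of Incenp, Kif2c, Cdc20, Aurkb and Cdc25c (_x_at) and of Pttg1, Cdca8, Bub1b, Nek2 and Prc1 (_s_at) may include other transcripts.

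**Figure D4:**
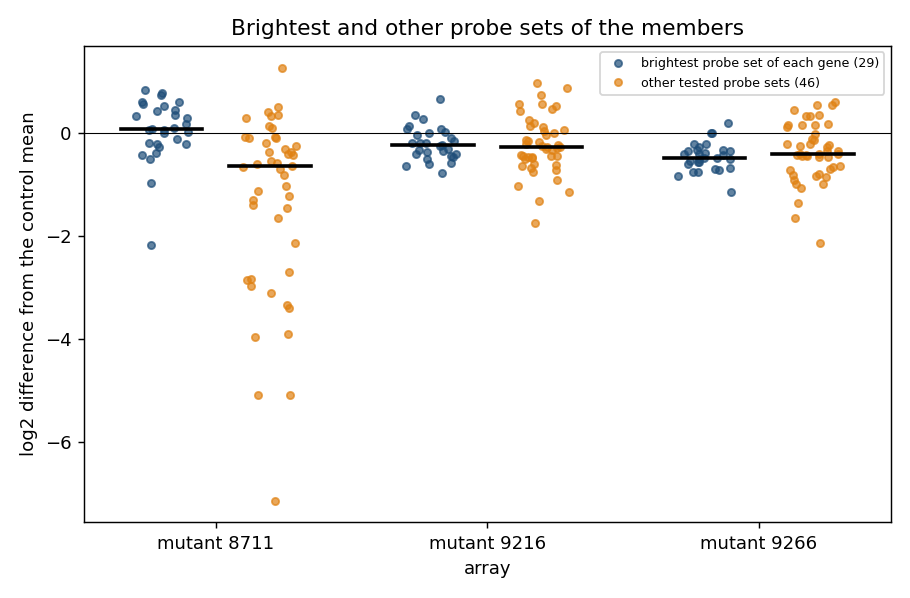
Each point is a tested probe set of the 29 members that have more than 1, plotted by its log2 difference from the control mean in each mutant array, blue for the brightest probe set of a gene and orange for the others, with the median as a black line. The medians part only in mutant 8711 (0.08 and -0.64) and lie close together in mutants 9216 and 9266.

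Other cell cycle lists differed in how far they went. Of 90 further mitosis genes, 85 were tested and 72 had lower values, the median being -0.23 on the log2 scale. In 11 of the 85 (12.9%) all mutants lay below all controls, beside 5.45% of all genes tested. In 1 all mutants lay above, beside 9.38%. The median kept its sign under each scaling, with 58 of 85 lower when arrays were centred on their median. The 2 with the smallest p, Pkmyt1, an inhibitory kinase of Cdk1, and Ckap5, a microtubule polymerase, had -1.45 (SE 0.58) and -0.66 (SE 0.27). Of 18 genes of the anaphase-promoting complex and its regulators, 8 were lower, with a median of 0.02, and of 9 cohesin genes 5 were, with a median of -0.04 that turned to 0.08 when arrays were centred on their median. The complex's inhibitor Fbxo5 had 683 ± 47.6 in controls against 467 ± 103 in mutants (n = 3 each), and its activator Fzr1 a difference of -0.75 (SE 0.46). The cohesin loader Nipbl had -1.44 (SE 0.84) and the cohesin regulator Pds5a -0.40 (SE 0.36). Several of these values rested on mutant 8711: without it the differences were -0.38 for Nipbl, which read 59.9 in that array and 575 and 533 in the other mutants, -0.04 for Pds5a, -0.28 for Fzr1, -0.96 for Pkmyt1, -0.44 for Ckap5 and -0.38 for Fbxo5. None of these genes passed the test over all probe sets.

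Of 23 transcription factors of cell cycle genes, 15 were lower, with a median of -0.09, or 0.02 when arrays were centred on their median. Foxm1 had 91.8 ± 39.0 against 70.7 ± 24.8 (n = 3 each), a log2 difference of -0.32 (SE 0.44), or -0.14 without mutant 8711, and Mybl2, which encodes B-Myb, 46.9 ± 11.8 against 31.3 ± 10.5 (n = 3 each), a difference of -0.57 (SE 0.37). E2f7, a repressor of the E2F family, had 359 ± 48.5 against 205 ± 34.8 (n = 3 each), a difference of -0.81 (SE 0.23), and E2f3 of -0.37 (SE 0.17). No gene of this list passed the test over all probe sets.

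DNA replication genes were lower for 37 of 42, with a median of -0.29, and D cyclins and CDK inhibitors for 9 of 11, with a median of -0.41. With all mutants below all controls there were 9 of 42 replication genes (21.4%) and 3 of 11 genes of the D cyclin list (27.3%), beside 5.45% of all genes tested. Tk1 and Rfc5, a thymidine kinase and a clamp loader subunit, had -0.96 (SE 0.26) and -0.55 (SE 0.18), and Ccnd2 and Ccnd1, cyclins of the phase before DNA replication, -1.03 (SE 0.16) and -1.55 (SE 0.44). By array, the means of the replication genes were -0.19, -0.32 and -0.50 in mutants 8711, 9216 and 9266, the same order as the mitosis and spindle genes. The D cyclin list had -0.60, -0.63 and -0.18, highest in mutant 9266, beside 0.01, -0.24 and 0.23 in the controls, so that this array lay within the control range. These differences between lists were not tested.

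Markers of other cell types also differed between the groups and between the mutant arrays. Of 12 pigment epithelium markers tested, 0 were lower in the mutants, and the summed intensity of the 13 on the array was 13727 to 15769 in controls, against 22450.2, 23666 and 33435 in mutants, highest in mutant 9266, where the mitosis and spindle genes were lowest. The brightest of this list, Dct and Pmel, had log2 differences of 1.09 (SE 0.24) and 0.12 (SE 0.40), the latter 0.59 without mutant 8711 and -0.19 without mutant 9266, and Ttr was below the testing limit. Of 8 neural retina progenitor markers tested, 8 were lower (7 when arrays were centred), and the summed intensity of the 9 on the array was 6596 to 7417 in controls, against 3374 to 4205 in mutants, with Hes5 below the limit. Periocular mesenchyme markers summed to 1174 to 2425 in controls, against 2871 to 3546 in mutants, with 0 of 11 lower. Their mean log2 difference from the control mean was 0.53, 0.85 and 1.14 in mutants 8711, 9216 and 9266, so this list was highest where the mitosis and spindle genes were lowest, and lowest where they were highest, beside 0.26, -0.68 and 0.41 in controls. The pigment epithelium list had 0.74, 0.72 and 1.44 in the same mutants. Macrophage markers summed to 1596 to 2226 and 2553 to 3295, with 3 of 12 lower (1 when centred). Erythroid markers, led by Hbb-y at 9627 ± 677 against 9893 ± 535 (n = 3 each), summed to 13334.5 to 17828 and 17072 to 18369.7. Of 11 markers of differentiating neurons on the array, 7 were tested, all lower (6 when arrays were centred), and the sum was 375 to 786 and 137 to 262, with Dcx, Isl1, Nefm and Stmn2 below the limit. Endothelial markers (291 to 583 and 209 to 413, with Pecam1 and Tie1 below the limit) and lens markers (2271 to 3336 and 1462 to 3198.5, with Cryba4, Crygs and Foxe3 below it) overlapped between the groups. The part of these cell types in the values of the mitosis and spindle genes was not tested.

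**Figure D5:**
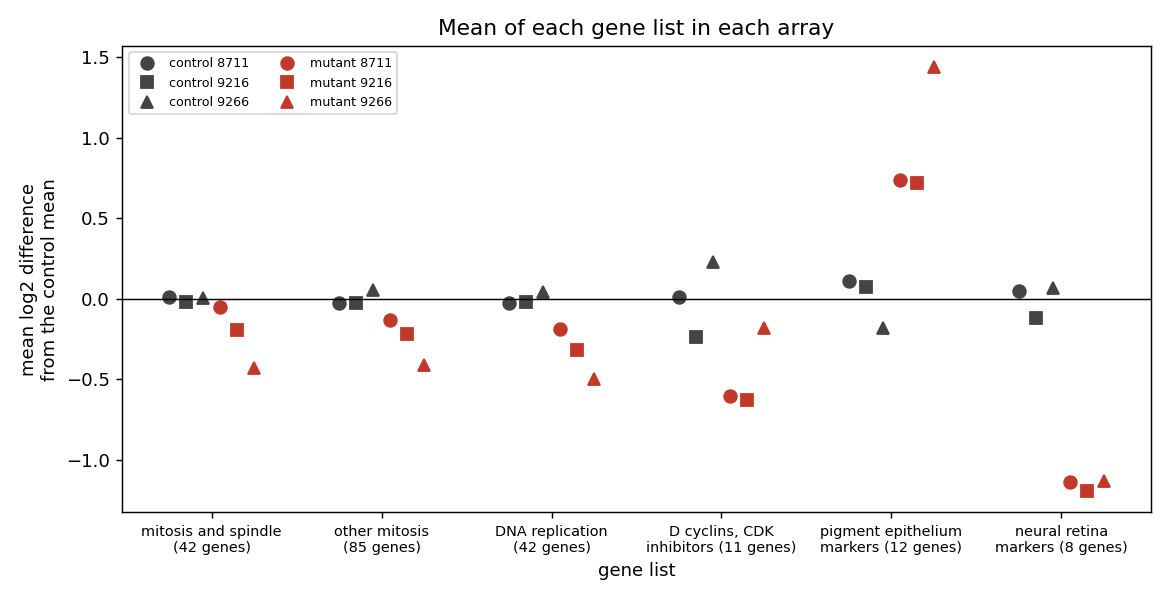
The mean log2 difference from the control mean is plotted for 6 gene lists in each array, grey for controls and red for FGFR mutants, with the array number given by the symbol. Mitosis and spindle genes and DNA replication genes are lowest in mutant 9266 (-0.43 and -0.50), the array in which pigment epithelium markers are highest (1.44), while neural retina markers are about equally low in all 3 mutants.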

How the data were processed

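Total RNA was obtained by Trizol extraction, per the labels' protocols, and the submitters' processing notes name MAS5 (version not given in the sources used here). What the authors deposited is 1 linear intensity value for each probe set on each array, with equal trimmed means over the 6 arrays, and it was used without rescaling. Equal trimmed means make arrays comparable where most transcripts hold steady, and leave differences in RNA quality as they are. Of 45101 probe sets, 64 manufacturer controls were left out, and of the others 34945 had 1 gene symbol in the platform annotation, 932 several and 9160 none.

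Values were transformed as log2(intensity + 1.7), the 10th percentile, so differences of dim genes are understated. Probe sets under the 40th percentile of mean log2 value (4.07) were left out, leaving 27022. Groups were compared with limma 3.58.1 (lmFit, eBayes with trend and robust) run under R 4.3.3 (statmod 1.5.0), two-sided, with Benjamini-Hochberg adjustment over all probe sets tested and a threshold of 0.05. Intensities are means ± SD. On simulated data with this spread, 0% of 2-fold, 32.8% of 4-fold and 49.3% of 8-fold changes were recovered among 27022 probe sets. Lists were described by counts and medians, without a test. Named genes were all measured members; from other cell cycle lists the 2 with the smallest p, with Foxm1 and Mybl2; and from marker lists the brightest and dimmest members. The members and lists were chosen with earlier results of these data known. Alternatives changed the added value, the normalization, the filter, the variance model or the probe sets averaged per gene, blocked on the title number, or left out arrays. Promoter sequences are RefSeq's. Plots come from matplotlib 3.10.9 under Python 3.11.15.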

Additional observations from a re-analysis of the deposited data

How the results depend on the processing

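With 0 calls among the members under every alternative run, the counts and the median carried the differences. The number of members lower in the mutants was 36 and ranged from 22 to 38 with 1 array left out, the lowest without mutant 9266 and the highest without mutant 8711, and was 37 without both 8711 arrays. The median ranged from -0.34 (without mutant 8711) to -0.029 (without mutant 9266) with 1 array left out, was -0.33 without both 8711 arrays and -0.37 with the mean of all probe sets of a gene. The members with every mutant below every control numbered 6 of 42, beside 5.45% of all genes tested. Their share was 7.14% (3) when arrays were centred on their median, beside 4.07% of all genes, 16.7% (7) after quantile normalization, beside 4.98%, and 26.2% (11) with the mean of all probe sets, beside 6.21%. With 1 array left out there were 7 to 19, and fewer arrays make such separation easier for any gene. The highest share, 45.2% without mutant 8711, stood beside 11% of all genes, the 23.8% (10) without control 9216 beside 14.5%, and the lowest, 16.7% without mutant 9266, beside 13.1%. Without both 8711 arrays it was 52.4% (22), beside 13.5%. The shares of all genes were computed after the data were seen. Calls over all probe sets numbered 0 to 1 with 1 array left out, and 1 without both 8711 arrays, each time Xist, which was not among the members. The sign of a member's difference changed for 14 of 42 without mutant 9266, 9 when centred and 0 after quantile normalization. Of 672 single-gene values under the alternatives, 657 moved by less than the spread between replicates. That count includes the changes of filter and variance model and the block on the title number. These leave every log2 difference as it was, so their part of the count was fixed in advance. With the title number as a replicate block, 0 members were called, as without it. Each number occurs once in each group, so the block could not change the count of 36 lower members. The correlations of deviations of same-numbered arrays were 0.049, 0.481 and -0.113, and those of differently numbered arrays ran from -0.453 to 0.346. Deviations among 3 arrays of a group depend on each other, so these values cannot decide whether the numbers pair the samples. The main comparison did not treat them as pairs. The cause of the changes between settings was not tested.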
